A study of Mus musculus with 12 samples.

Results

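Glycolysis turns glucose into pyruvate and lactate, and the hypoxia response is the set of genes that cells turn on when oxygen is short. The 45 genes described here were named by symbol. Of these, 25 act in glucose uptake, glycolysis and lactate or pyruvate handling, and 11 are widely used hypoxia target genes. Another 5 belong to the oxygen-sensing machinery and are called oxygen-sensing genes below. The last 4 are enzymes of collagen and disulfide processing that the same response controls. All 45 were found among the 49315 genes of the count table, and all 45 were among the 16565 genes that passed the filter on low counts. They were measured by bulk RNA sequencing of primary epiphyseal chondrocytes, the cartilage cells at the ends of growing long bones, in 12 libraries.

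The libraries came from mice labelled female and 5 days old, with 3 samples for each of 4 genotypes: wild type (WT), knockout of Phlpp1 (Phlpp1 KO), knockout of Phlpp2 (Phlpp2 KO) and knockout of both (Phlpp1/2 KO). The labels give all samples the strain C57BL6, except for C57BL7 on Phlpp2 KO 3 and C57BL8, C57BL9 and C57BL10 on Phlpp1/2 KO 1, 2 and 3. The labels name the genotypes with no Cre driver or treating agent. All cells were freed from cartilage with collagenase, frozen, later thawed, and kept overnight on plastic in DMEM with 10% serum before RNA was taken. The oxygen level of that culture is not given in the sources used here. Single animals and pools cannot be told apart from the labels, so p-values measure only the spread between samples.

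Library totals ran from 21706337 to 33115345 counts, and 1 raw count was worth at most 0.0461 CPM (counts per 1000000 counts of the scaled library). Phlpp1 was at 35.1 to 44.6 CPM in WT and Phlpp2 KO and at 7.71 to 9.46 CPM in Phlpp1 KO and Phlpp1/2 KO. Phlpp2 was at 22.4 to 28.1 CPM in WT and Phlpp1 KO, at 16.8 to 19.4 CPM in Phlpp2 KO and at 10.2 to 11.4 CPM in Phlpp1/2 KO. A pair of libraries went against the female label or stood apart: Xist was at 13.9 CPM in Phlpp1 KO 1 and at 3.77 CPM in Phlpp1/2 KO 1, against 278 to 587 CPM in the other libraries, and the 4 Y-linked genes summed to 109 CPM in Phlpp1/2 KO 1. Without this pair, the median log2 fold change of the 45 genes was -0.20 in Phlpp1 KO (-0.19 with it), -0.059 in Phlpp2 KO (-0.074) and -0.11 in Phlpp1/2 KO (-0.091) against WT. It was -0.052 in Phlpp1/2 KO against Phlpp2 KO (-0.030), 0.092 in Phlpp1/2 KO against Phlpp1 KO (0.11), -0.13 for averaged Phlpp1 loss (-0.11), 0.027 for averaged Phlpp2 loss (0.018) and 0.16 for the interaction (0.20). The 7 chondrocyte markers found of 8 listed, Col2a1 and Acan among them, summed to 26127 to 48253 CPM in every library, and the 6 erythroid markers to at most 0.572 CPM, with Hbb-bs and Hbb-bt at 0.

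Cartilage has no blood vessels, and growth plate chondrocytes draw most of their energy from glycolysis. When oxygen is present, prolyl hydroxylases of the Egln family mark the HIF-1 and HIF-2 alpha subunits, the products of Hif1a and Epas1, and the VHL protein then sends them to degradation. When oxygen is short the subunits persist, pair with ARNT and bind a short DNA motif near their targets, among them glucose transporters, glycolytic enzymes, Vegfa, Bnip3 and collagen-modifying enzymes. Because this control acts on the protein, the mRNA level of Hif1a or Epas1 does not measure HIF activity. PHLPP1 and PHLPP2 are phosphatases that remove an activating phosphate from the kinase AKT, which itself promotes glucose uptake and glycolysis in many cells.

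The promoters of 4 genes are shown because the fold changes or levels below turn on them, and because they differ in how often they hold the core of the HIF motif. Each window runs from 250 bases before to 50 bases after a RefSeq start site of the GRCm38.p6 build. Capitals mark every match to ACGTG or GCGTG on either strand, so that CACGT and CACGC are the same motifs read from the other strand, and CACGTG counts as 2 overlapping matches. The Ero1l window lies at chr14:45318523-45318822 on the minus strand, the Pfkfb3 window at chr2:11502041-11502340 on the minus strand, the Aldoc window at chr11:78322823-78323122 on the plus strand, and the Ldha window at chr7:46845554-46845853 on the plus strand.
Ero1l: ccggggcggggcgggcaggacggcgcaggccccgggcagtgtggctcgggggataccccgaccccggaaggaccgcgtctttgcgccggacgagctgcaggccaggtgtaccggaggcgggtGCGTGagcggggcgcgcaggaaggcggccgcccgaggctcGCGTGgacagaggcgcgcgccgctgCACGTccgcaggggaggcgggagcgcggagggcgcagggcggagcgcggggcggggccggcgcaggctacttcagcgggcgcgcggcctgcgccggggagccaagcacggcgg
Pfkfb3: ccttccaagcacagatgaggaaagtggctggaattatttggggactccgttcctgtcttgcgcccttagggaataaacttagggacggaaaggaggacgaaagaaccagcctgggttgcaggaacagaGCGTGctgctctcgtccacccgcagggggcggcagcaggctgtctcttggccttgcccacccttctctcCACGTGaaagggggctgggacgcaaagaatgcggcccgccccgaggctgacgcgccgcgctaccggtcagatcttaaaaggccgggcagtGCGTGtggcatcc
Aldoc: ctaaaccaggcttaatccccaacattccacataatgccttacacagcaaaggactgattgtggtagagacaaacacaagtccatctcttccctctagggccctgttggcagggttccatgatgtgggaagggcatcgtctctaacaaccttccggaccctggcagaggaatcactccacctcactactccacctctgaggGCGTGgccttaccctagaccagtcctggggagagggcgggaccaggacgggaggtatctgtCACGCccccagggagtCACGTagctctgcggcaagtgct
Ldha: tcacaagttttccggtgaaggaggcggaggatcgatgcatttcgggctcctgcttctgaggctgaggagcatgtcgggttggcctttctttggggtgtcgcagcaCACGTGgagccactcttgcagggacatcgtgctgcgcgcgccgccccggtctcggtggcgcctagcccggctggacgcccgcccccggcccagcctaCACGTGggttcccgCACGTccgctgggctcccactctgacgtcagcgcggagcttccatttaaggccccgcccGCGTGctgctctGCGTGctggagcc
Ldha held 7 matches, Pfkfb3 held 4, and Ero1l (listed by RefSeq as Ero1a) and Aldoc held 3 each. Where a gene had several start sites, the window with the most matches is shown: the other windows of Ldha, Pfkfb3 and Aldoc held 2, 1 and 1, and the other Pfkfb3 window is the one at the 5′ end of the annotated gene. RefSeq promoters were matched for 40 of the 45 genes, with 58 start sites in all, and not for Slc2a3, Epas1, Bnip3l, Ndrg1 and Plod2. ACGTG alone was in 55.2% of these 58 windows, against 19.6% of all 32851 promoter windows of the same length. Either motif was in 77.6% of the windows of the 40 genes, against 43.8% of all. The windows of these genes were richer in G and C, at 62.5% against 53.8% on average. Among windows with at least 60% G and C, ACGTG was in 71.4% of the 35 from these genes and in 26.5% of all. Either motif was in 31 of those 35 and in 69.2% of all windows that rich in G and C. A match is a run of letters and not a measured binding site.

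In WT chondrocytes the enzymes of the payoff phase of glycolysis were the most abundant of these transcripts. In RPKM, the CPM per 1000 bases of summed exon length, Pkm, the last enzyme of glycolysis, stood at 893 ± 18.1 (SD, n = 3), Ldha, which makes lactate, at 688 ± 52.9, Gapdh at 640 ± 39.6, Pgk1 at 459 ± 35.9 and Eno1 at 451 ± 26.4. Aldoa followed at 363 ± 16.9, Tpi1 at 273 ± 26.6 and Pgam1 at 171 ± 9.55 RPKM. In RPKM, the mean and SD ranges of Ldha and Gapdh overlapped, as did those of Pgk1 and Eno1. These SDs do not compare the genes within the same library. The order between genes depends on the summed exon length, which takes in every annotated exon. It was 5379 bases for Eno1 and 2244 for Pgk1, and their WT means were 2426 and 1030 CPM. Of the genes outside glycolysis, the collagen prolyl hydroxylase P4ha1 at 111 ± 13.8 and the collagen lysyl hydroxylase Plod2 at 105 ± 6.58 RPKM ranked highest. The ubiquitous glucose transporter Slc2a1 stood at 94.4 ± 5.82 RPKM, while the other transporter, Slc2a3, was the lowest of the 45 at 0.875 ± 0.0136 RPKM. Aldoc and Pfkfb4 were also near the bottom, at 1.87 ± 0.176 and 1.07 ± 0.119 RPKM. Of the oxygen-sensing machinery, Hif1a was at 67.7 ± 1.63 RPKM and Epas1 at 10.6 ± 0.181. Together the 45 genes took 1.675% to 2.169% of the counts of a library.

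The loss of Phlpp1 alone went with lower levels of most of these transcripts, by small amounts. In Phlpp1 KO against WT, 41 of the 45 genes had a log2 fold change below 0, against 52.3% of all tested genes, and their median was -0.19 against -0.013 for all tested genes. None of the 45 passed an adjusted p under 0.05 (edgeR's quasi-likelihood test, Benjamini-Hochberg adjustment over all 16565 genes), where 0.537% of all tested genes did. At an unadjusted p under 0.05, 17 of the 45 were lower and none higher, against 9.54% and 10.8% of all tested genes. Other analyses of the same counts differed. DESeq2 called 4 (Aldoc, Epas1, Ero1l and Pfkfb3), and limma-voom called 0. EdgeR fitted to the 6 WT and Phlpp1 KO libraries alone called 8 (Aldoc, Egln1, Egln3, Epas1, Hk1, Pfkfb3, Pfkl and Pfkm). All of these were lower. Over all genes, the same analyses called 990, 72 and 1163, where edgeR on all 12 libraries called 89. In 27 of the 45, all 3 Phlpp1 KO libraries lay below all 3 WT libraries, against 13.3% of all tested genes, and Vegfa was the 1 gene with all 3 above, against 14.9%. The lower genes spanned most roles. In glycolysis, 3 of the 3 genes for hexose phosphorylation and isomerisation and 5 of the 5 of the phosphofructokinase step had no overlap. So did 7 of the 9 triose and payoff enzymes, 4 of the 6 for lactate and pyruvate and 0 of the 2 glucose transporters. It was 4 of the 5 oxygen-sensing genes, 3 of the 11 hypoxia targets and 1 of the 4 collagen and disulfide enzymes. Differences between these groups of genes were not tested.

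Leaving out a library can only keep or raise a count of genes without overlap. Such recounts therefore cannot show whether the count depends on single libraries. The median log2 fold change of the 45 genes ran from -0.22 to -0.16 on leaving out 1 library at a time. With WT 1, 2 or 3 left out, 33, 27 and 28 of the 45 genes lay below with no overlap, where 18.9%, 18.9% and 17.9% of all tested genes did in the smaller groups. With Phlpp1 KO 1, 2 or 3 left out it was 31, 27 and 30 genes, against 20%, 18.6% and 17.7%. Other features moved with the same contrast. The share of counts in mt- genes was 0.674% to 0.751% in WT and 0.8421% to 1.1001% in Phlpp1 KO. The 8 proliferation genes summed to 1409 to 1615 CPM in WT and 1621 to 1731 CPM in Phlpp1 KO. The 8 macrophage markers summed to 51.5 to 58.6 and 43.7 to 49.0 CPM, and the 5 osteoblast markers to 35.5 to 48.6 and 29.8 to 31.1 CPM, with none of either list at 0 in all libraries. Their part in the result was not tested. In bulk RNA, fewer cells of a type and less RNA per cell cannot be told apart.

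**Figure D1:**
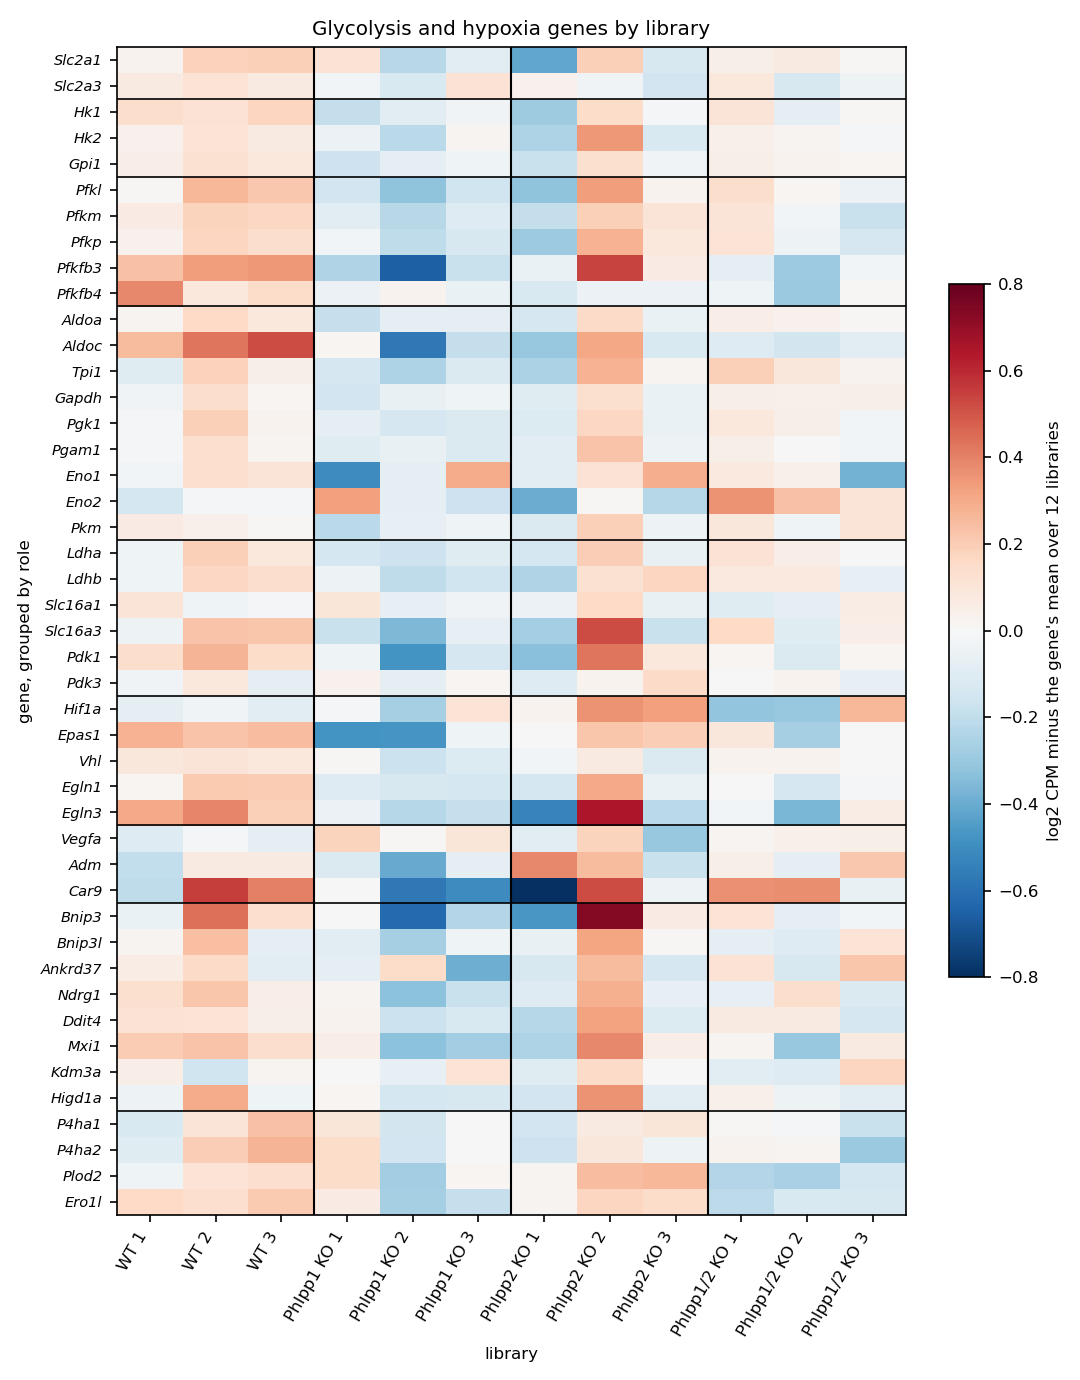
Each row is 1 of the 45 genes, grouped by role with black lines between roles, and each column 1 of the 12 libraries. Colour gives log2 CPM minus the gene's mean over the 12 libraries, from blue (lower) to red (higher), with colours saturating at the ends of the scale. The WT columns are mostly red and the Phlpp1 KO columns mostly blue, while Phlpp2 KO holds a blue library (1) beside a red one (2).

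The committed step of glycolysis is catalysed by phosphofructokinase, and all 5 genes of this step were lower in Phlpp1 KO than in WT without overlap. Pfkfb3 (chromosome 2, 11471433 to 11554077, minus strand, mm10) encodes the enzyme that makes fructose 2,6-bisphosphate, the activator of phosphofructokinase. It was at 86.0, 92.2 and 93.1 CPM in WT 1, 2 and 3, 62.0, 46.5 and 64.8 in Phlpp1 KO, 70.5, 106 and 76.4 in Phlpp2 KO and 69.2, 59.7 and 72.0 in Phlpp1/2 KO. All 3 Phlpp1 KO libraries lay below all WT libraries, as did all 3 Phlpp1/2 KO libraries, while Phlpp2 KO overlapped WT. The log2 fold change was -0.65 (SE 0.16, adjusted p = 0.0859) in Phlpp1 KO against WT, or 1.57-fold lower, and -0.34 (SE 0.15, adjusted p = 0.569) in Phlpp1/2 KO against Phlpp2 KO. Pfkfb4, its paralog, was at 5.88, 4.79 and 5.01 CPM in WT 1, 2 and 3, 4.37, 4.60 and 4.35 in Phlpp1 KO, 4.16, 4.37 and 4.37 in Phlpp2 KO and 4.41, 3.67 and 4.55 in Phlpp1/2 KO. Each knockout group lay below WT, with log2 fold changes of -0.23 (SE 0.13, adjusted p = 0.326), -0.28 (SE 0.13, adjusted p = 0.356) and -0.31 (SE 0.13, adjusted p = 0.386) for Phlpp1, Phlpp2 and Phlpp1/2 KO. Among the 3 phosphofructokinase genes, Pfkm was at 55.0, 59.6 and 59.0 CPM in WT 1, 2 and 3, 49.4, 45.1 and 49.1 in Phlpp1 KO, 46.1, 60.01 and 56.6 in Phlpp2 KO and 56.7, 51.9 and 46.6 in Phlpp1/2 KO. Its Phlpp1 KO libraries did not overlap WT and its log2 fold change was -0.27 (SE 0.095, adjusted p = 0.14). Pfkl and Pfkp ranged over the 12 libraries from 202 to 320 and from 84.4 to 125 CPM, with Phlpp1 KO below WT in all libraries of both and log2 fold changes of -0.38 (SE 0.13, adjusted p = 0.149) and -0.23 (SE 0.12, adjusted p = 0.29).

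Glucose enters the cell through transporters and is then phosphorylated. Slc2a1, the main glucose transporter here, was at 307, 342 and 344 CPM in WT 1, 2 and 3, 327, 258 and 285 in Phlpp1 KO, 226, 344 and 275 in Phlpp2 KO and 311, 317 and 304 in Phlpp1/2 KO. Phlpp1 KO 1 lay inside the WT range, and the log2 fold change was -0.19 (SE 0.13, adjusted p = 0.426); Phlpp2 KO spanned from the lowest to the highest of the 12 libraries. Slc2a3 ranged only from 5.37 to 6.46 CPM. Hexokinases trap glucose in the cell by phosphorylation. Hk1 was at 293, 287 and 299 CPM in WT 1, 2 and 3, 233, 249.9 and 260.4 in Phlpp1 KO, 218, 294 and 263 in Phlpp2 KO and 285, 252 and 267 in Phlpp1/2 KO. It was lower in all Phlpp1 KO and all Phlpp1/2 KO libraries than in WT, by -0.24 (SE 0.091, adjusted p = 0.161) and -0.13 (SE 0.091, adjusted p = 0.635) on the log2 scale. Hk2, the hexokinase that HIF and insulin signals raise in other tissues, was at 90.2, 94.99 and 92.8 CPM in WT 1, 2 and 3, 85.2, 75.9 and 89.4 in Phlpp1 KO, 74.1, 112 and 81.0 in Phlpp2 KO and 90.9, 89.3 and 87.7 in Phlpp1/2 KO. Its Phlpp1 KO libraries lay just below WT with a log2 difference of -0.15 (SE 0.12, adjusted p = 0.522), and Phlpp2 KO 2 was the highest of the 12. Gpi1, which converts glucose 6-phosphate to fructose 6-phosphate, ranged from 467 to 579 CPM and had a log2 difference of -0.18 (SE 0.071, adjusted p = 0.186) in Phlpp1 KO.

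The aldolases and triose phosphate isomerase split fructose bisphosphate and interconvert the products. Aldoa, the main aldolase, was at 1011, 1109 and 1053 CPM in WT 1, 2 and 3, 876, 946 and 944 in Phlpp1 KO, 908, 1105 and 959.8 in Phlpp2 KO and 1031, 1020.4 and 1003 in Phlpp1/2 KO. Phlpp1 KO lay below both WT and Phlpp1/2 KO in all libraries, with log2 fold changes of -0.20 (SE 0.071, adjusted p = 0.149) for Phlpp1 KO against WT and 0.14 (SE 0.071, adjusted p = 0.626) for Phlpp1/2 KO against Phlpp1 KO. Aldoc (chromosome 11, 78322968 to 78327781, plus strand), a minor aldolase in these cells, was at 5.48, 6.20 and 6.61 CPM in WT 1, 2 and 3, 4.64, 3.09 and 4.03 in Phlpp1 KO, 3.73, 5.69 and 4.22 in Phlpp2 KO and 4.28, 4.16 and 4.31 in Phlpp1/2 KO. All Phlpp1 KO and Phlpp1/2 KO libraries were below WT, and so were Phlpp2 KO 1 and 3. Its log2 fold changes were among the most negative of the 45 genes: -0.64 (SE 0.18, adjusted p = 0.098) in Phlpp1 KO, -0.42 (SE 0.17, adjusted p = 0.316) in Phlpp2 KO and -0.52 (SE 0.17, adjusted p = 0.318) in Phlpp1/2 KO against WT. Tpi1, the triose phosphate isomerase, was at 679, 826 and 751 CPM in WT 1, 2 and 3, 662, 613 and 671 in Phlpp1 KO, 609, 879.5 and 738 in Phlpp2 KO and 828, 774 and 739 in Phlpp1/2 KO. Phlpp1 KO lay below WT and below Phlpp1/2 KO in all libraries, at -0.21 (SE 0.11, adjusted p = 0.312) against WT, and Phlpp1/2 KO stood 0.27 (SE 0.11, adjusted p = 0.626) above Phlpp1 KO on the log2 scale.

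Gapdh, often used as a reference gene, was at 2513, 2829 and 2594 CPM in WT 1, 2 and 3, 2313, 2466 and 2504 in Phlpp1 KO, 2405, 2800.5 and 2477 in Phlpp2 KO and 2657, 2646 and 2657 in Phlpp1/2 KO. It too lay lower in every Phlpp1 KO library than in any WT library, but the highest of them, 2504 CPM, was next to the lowest WT value of 2513, and the log2 fold change was -0.12 (SE 0.068, adjusted p = 0.328). Pgk1, which catalyses an ATP-yielding step of the payoff phase, was at 969, 1121 and 999 CPM in WT 1, 2 and 3, 932, 894 and 904 in Phlpp1 KO, 911, 1102 and 947 in Phlpp2 KO and 1039, 1015 and 966 in Phlpp1/2 KO. Phlpp1 KO was below WT and Phlpp1/2 KO in all libraries, at -0.18 (SE 0.076, adjusted p = 0.21) against WT. Pkm was at 4552, 4477 and 4372 CPM in WT 1, 2 and 3, 3744, 4145 and 4242 in Phlpp1 KO, 4009, 4966 and 4223 in Phlpp2 KO and 4617, 4242 and 4672 in Phlpp1/2 KO. Its Phlpp1 KO libraries were below all WT libraries, by -0.14 (SE 0.08, adjusted p = 0.333), while Phlpp1/2 KO overlapped both. Pgam1 ranged from 303 to 384 CPM and was lower without overlap in Phlpp1 KO, by -0.14 (SE 0.076, adjusted p = 0.32). Eno2, the enolase first known from neurons, went the other way and was at 10.2, 11.1 and 11.1 CPM in WT 1, 2 and 3, 14.1, 10.6 and 10.0 in Phlpp1 KO, 8.54, 11.3 and 9.58 in Phlpp2 KO and 14.4, 13.2 and 12.1 in Phlpp1/2 KO. All 3 Phlpp1/2 KO libraries exceeded all WT and all Phlpp2 KO libraries, with log2 fold changes of 0.29 (SE 0.14, adjusted p = 0.462) and 0.43 (SE 0.14, adjusted p = 0.516); in Phlpp1 KO, library 1 alone was as high.

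Eno1, the main enolase, could not be read as a single gene. Its transcript is 99.48% identical over 1736 aligned bases to that of Eno1b, a gene on another chromosome, and the sources used here do not say how reads that match both were counted. Eno1 was at 2265, 2535 and 2478 CPM in WT 1, 2 and 3, 1628, 2186 and 2834 in Phlpp1 KO, 2169, 2498 and 2821 in Phlpp2 KO and 2428, 2375 and 1777 in Phlpp1/2 KO. Eno1b was at 249, 285 and 272 CPM in WT 1, 2 and 3, 469, 242 and 10.7 in Phlpp1 KO, 232, 274 and 13.5 in Phlpp2 KO and 273, 267 and 505 in Phlpp1/2 KO. Eno1b thus took 3 separate levels: 469 and 505 CPM in Phlpp1 KO 1 and Phlpp1/2 KO 3, 10.7 and 13.5 in Phlpp1 KO 3 and Phlpp2 KO 3, and 232 to 285 in the other 8 libraries. Eno1 was lowest in the first of these sets and highest in the next. The range over libraries was 1.74-fold for Eno1, 47.1-fold for Eno1b and 1.36-fold for their sum. With the counts of both summed, the log2 fold change in Phlpp1 KO against WT was -0.13 (SE 0.11, adjusted p = 0.517), and the sign turned in Phlpp2 KO against WT, from 0.041 to -0.014, and in Phlpp1/2 KO against Phlpp1 KO, from -0.015 to 0.049. In all, 14 of the 45 genes had a gene or pseudogene at least 95% identical over at least 150 bases: Eno1, Gpi1, Pfkm, Aldoa, Tpi1, Gapdh, Pgk1, Pgam1, Pkm, Ldha, Ldhb, Bnip3, Bnip3l and Higd1a. The largest single share outside Eno1 was that of Pgam1-ps2, whose counts were 1.595% of those of Pgam1.

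**Figure D2:**
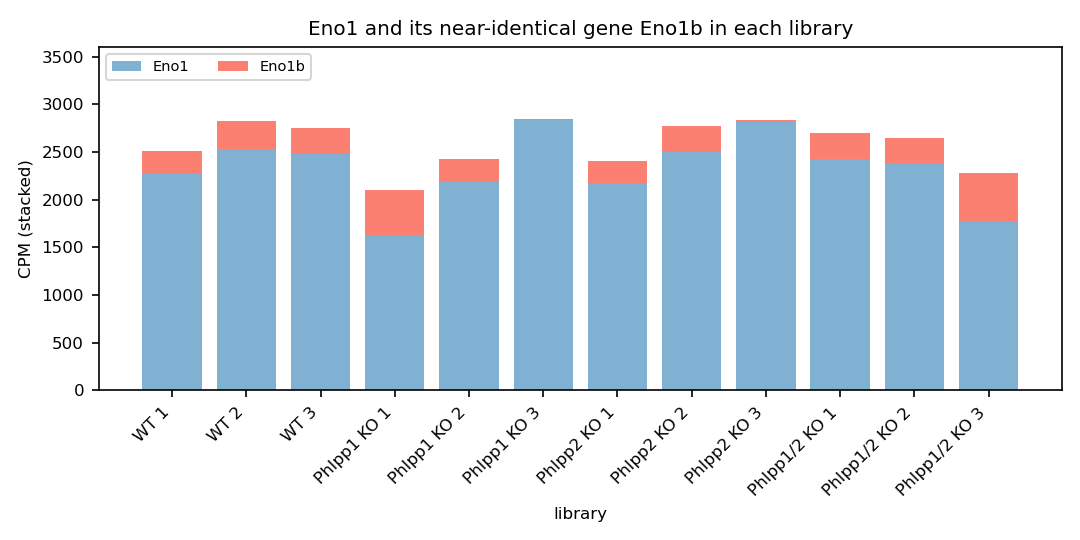
Stacked bars give the CPM of Eno1 (blue) and of its near-identical gene Eno1b (red) in each of the 12 libraries. Eno1b is almost absent in Phlpp1 KO 3 and Phlpp2 KO 3, at 10.7 and 13.5 CPM, and the stacked height varies less than either gene alone.

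Genes that steer pyruvate toward lactate followed the enzymes above. Ldha, which reduces pyruvate to lactate, was at 2103, 2453 and 2277 CPM in WT 1, 2 and 3, 1946, 1913 and 2009 in Phlpp1 KO, 1953, 2463 and 2064 in Phlpp2 KO and 2326, 2229.8 and 2154 in Phlpp1/2 KO. All Phlpp1 KO libraries lay below all WT and all Phlpp1/2 KO libraries, with log2 fold changes of -0.22 (SE 0.083, adjusted p = 0.164) for Phlpp1 KO against WT and 0.19 (SE 0.083, adjusted p = 0.626) for Phlpp1/2 KO against Phlpp1 KO. Slc16a3, the lactate exporter MCT4, was at 151, 182 and 181 CPM in WT 1, 2 and 3, 137, 121 and 148 in Phlpp1 KO, 129, 223 and 137 in Phlpp2 KO and 173, 145 and 161 in Phlpp1/2 KO. Phlpp1 KO lay below WT in all libraries, at -0.34 (SE 0.18, adjusted p = 0.328), but Phlpp2 KO spread from 129 to 223 CPM and covered nearly the whole range. Pdk1, the kinase that HIF-1 raises to shut pyruvate dehydrogenase, was at 74.0, 81.3 and 74.5 CPM in WT 1, 2 and 3, 65.7, 48.3 and 61.2 in Phlpp1 KO, 53.2, 90.3 and 71.1 in Phlpp2 KO and 67.9, 62.1 and 68.0 in Phlpp1/2 KO. Phlpp1 KO and Phlpp1/2 KO were below WT in all libraries, at -0.39 (SE 0.16, adjusted p = 0.205) and -0.21 (SE 0.16, adjusted p = 0.665). Ldhb ranged from 17.6 to 23.4 CPM and was lower in Phlpp1 KO by -0.23 (SE 0.10, adjusted p = 0.242). The transporter Slc16a1 and the kinase Pdk3 showed next to no difference in that contrast, with log2 fold changes of -0.018 (SE 0.074) and -0.0046 (SE 0.071).

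Of the 5 oxygen-sensing genes, Epas1 had the most negative log2 fold change in Phlpp1 KO against WT. Epas1 (chromosome 17, 86753700 to 86833410, plus strand), which encodes the HIF-2 alpha subunit, known in cartilage for raising matrix-degrading enzymes, was at 60.2, 58.2 and 59.0 CPM in WT 1, 2 and 3, 35.8, 35.8 and 48.5 in Phlpp1 KO, 49.6, 58.0 and 57.0 in Phlpp2 KO and 53.1, 41.3 and 49.6 in Phlpp1/2 KO. The 3 WT libraries lay close together, and every library of every knockout lay below them. The log2 fold change was -0.56 (SE 0.12, adjusted p = 0.0633) in Phlpp1 KO, the smallest p of the 45 genes in that contrast, -0.11 (SE 0.12, adjusted p = 0.736) in Phlpp2 KO and -0.30 (SE 0.12, adjusted p = 0.37) in Phlpp1/2 KO against WT. Phlpp1 KO 3, at 48.5 CPM, lay apart from the other Phlpp1 KO libraries near 35.8 and inside the Phlpp1/2 KO range. With it left out, Epas1 was called in Phlpp1 KO against WT, at -0.71 (adjusted p = 0.014). In the other 5 refits that left out 1 library it was not called, at -0.57 to -0.47 and adjusted p from 0.132 to 0.192, and without both libraries of low Xist it was at -0.47 (adjusted p = 0.155).

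Hif1a, which encodes the HIF-1 alpha subunit needed for the survival of growth plate chondrocytes, was at 395, 409.9 and 392 CPM in WT 1, 2 and 3, 415, 346 and 451 in Phlpp1 KO, 426, 534 and 523 in Phlpp2 KO and 335, 338 and 500.4 in Phlpp1/2 KO. It did not follow the rest: Phlpp1 KO lay around WT with a log2 difference of 0.018 (SE 0.15, adjusted p = 0.959), and all Phlpp2 KO libraries exceeded all WT libraries, at 0.31 (SE 0.15, adjusted p = 0.402). In Phlpp1/2 KO, libraries 1 and 2 were below every other library, and library 3 was among the highest. Against Phlpp2 KO the log2 fold change was -0.34 (SE 0.15, adjusted p = 0.564) with all libraries and -0.56 (SE 0.11, adjusted p = 0.0466) without Phlpp1/2 KO 3, which left that group with 2 libraries, and -0.24 (SE 0.17, adjusted p = 0.92) without both libraries of low Xist. Vhl, the subunit that recognises hydroxylated HIF, was at 38.0, 38.3 and 37.8 CPM in WT 1, 2 and 3, 35.8, 31.6 and 33.0 in Phlpp1 KO, 35.1, 37.5 and 33.0 in Phlpp2 KO and 36.4, 36.4 and 35.6 in Phlpp1/2 KO. WT was tight and above all knockout libraries, with log2 fold changes of -0.18 (SE 0.065, adjusted p = 0.143) in Phlpp1 KO and -0.11 (SE 0.065, adjusted p = 0.475) in Phlpp2 KO.

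Egln1, the main oxygen-sensing prolyl hydroxylase, was at 84.1, 96.3 and 95.8 CPM in WT 1, 2 and 3, 77.5, 76.2 and 75.4 in Phlpp1 KO, 75.5, 103 and 80.3 in Phlpp2 KO and 83.1, 75.9 and 82.4 in Phlpp1/2 KO. Egln3, a hydroxylase that is itself a HIF target, was at 10.8, 11.5 and 9.98 CPM in WT 1, 2 and 3, 8.45, 7.46 and 7.68 in Phlpp1 KO, 6.04, 13.7 and 7.51 in Phlpp2 KO and 8.60, 6.79 and 9.10 in Phlpp1/2 KO. For both, every Phlpp1 KO and Phlpp1/2 KO library lay below every WT library, and Phlpp2 KO held the highest value and a value at or near the lowest. The log2 fold changes in Phlpp1 KO against WT were -0.27 (SE 0.097, adjusted p = 0.149) for Egln1 and -0.45 (SE 0.24, adjusted p = 0.319) for Egln3.

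**Figure D3:**
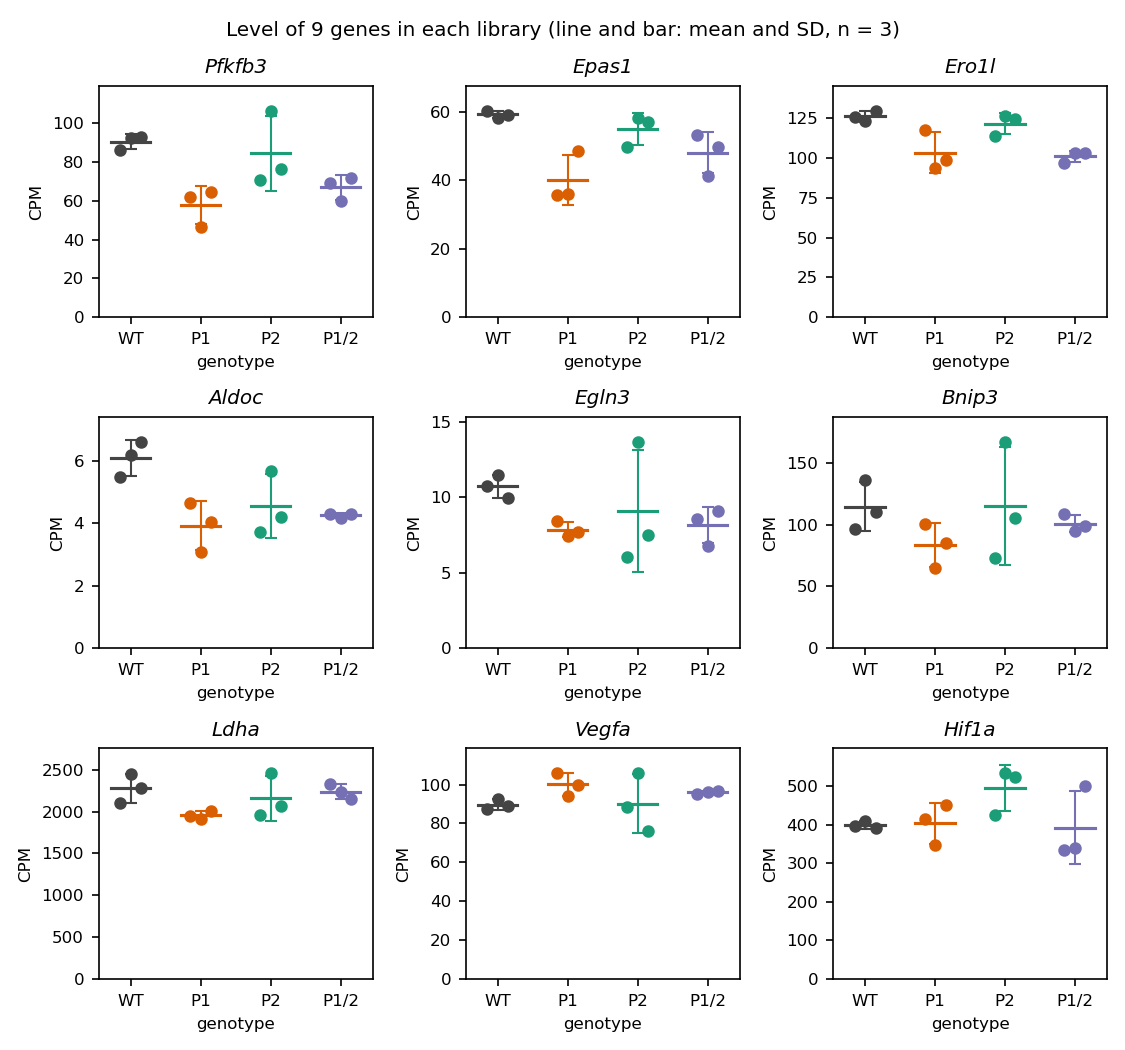
Points give the CPM of 9 genes in each of 3 libraries per genotype (P1, Phlpp1 KO; P2, Phlpp2 KO; P1/2, Phlpp1/2 KO), from axes that start at 0. Horizontal lines and bars give the mean and SD. Pfkfb3, Epas1, Aldoc and Egln3 have all Phlpp1 KO points below all WT points, Vegfa has them above, and Phlpp2 KO is the most scattered group for Egln3 and Bnip3.

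Of the 11 hypoxia targets, 9 had a log2 fold change below 0 in Phlpp1 KO against WT. Vegfa, the growth factor that brings vessels into the growth plate, was at 87.4, 92.5 and 89.2 CPM in WT 1, 2 and 3, 106, 94.2 and 100.01 in Phlpp1 KO, 88.5, 106 and 76.1 in Phlpp2 KO and 94.9, 96.4 and 96.6 in Phlpp1/2 KO. It was higher in every Phlpp1 KO and every Phlpp1/2 KO library than in WT, with log2 fold changes of 0.16 (SE 0.093, adjusted p = 0.365) and 0.097 (SE 0.093, adjusted p = 0.746), while Phlpp2 KO spread from 76.1 to 106 CPM. Adm, the peptide adrenomedullin, was at 17.6, 21.2 and 21.2 CPM in WT 1, 2 and 3, 18.6, 15.3 and 19.1 in Phlpp1 KO, 26.3, 24.1 and 17.9 in Phlpp2 KO and 20.8, 19.2 and 23.5 in Phlpp1/2 KO. Phlpp1 KO overlapped WT, at -0.18 (SE 0.14, adjusted p = 0.502); over both pairs of genotypes, Phlpp2 loss gave 0.22 (SE 0.099, adjusted p = 0.702), the smallest p of the 45 genes there. Car9, a carbonic anhydrase used as a hypoxia marker, ranged from 5.46 to 14.3 CPM. It had the widest spread within genotypes, with a pooled SD of 0.44 on the log2 scale, and a log2 difference of -0.63 (SE 0.31, adjusted p = 0.287) in Phlpp1 KO.

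Bnip3, a mitophagy receptor and HIF-1 target, was at 96.9, 136 and 110.4 CPM in WT 1, 2 and 3, 100.2, 65.2 and 85.4 in Phlpp1 KO, 72.7, 167 and 105 in Phlpp2 KO and 109, 95.02 and 99.1 in Phlpp1/2 KO. Phlpp1 KO 1 lay within the WT range and Phlpp2 KO spread from 72.7 to 167 CPM, so the log2 fold change of -0.46 (SE 0.26, adjusted p = 0.364) had a wide error. Ndrg1, a stress-response gene, was at 54.8, 58.4 and 52.0 CPM in WT 1, 2 and 3, 50.9, 39.9 and 44.3 in Phlpp1 KO, 46.7, 61.1 and 47.8 in Phlpp2 KO and 47.9, 55.2 and 46.3 in Phlpp1/2 KO. All Phlpp1 KO libraries were below WT, at -0.29 (SE 0.11, adjusted p = 0.182). Mxi1, a MYC antagonist, and Ddit4, an inhibitor of mTORC1, ranged from 10.5 to 17.2 and from 113 to 166 CPM and were likewise lower without overlap in Phlpp1 KO, at -0.36 (SE 0.16, adjusted p = 0.211) and -0.18 (SE 0.12, adjusted p = 0.437). The Phlpp1 KO libraries overlapped WT for the other 4 intracellular targets. The mitophagy receptor Bnip3l ranged from 98.7 to 148 CPM, the ankyrin-repeat gene Ankrd37 from 3.02 to 4.70, the histone demethylase Kdm3a from 40.4 to 50.9 and the mitochondrial gene Higd1a from 104 to 149 CPM. Their log2 fold changes ran from -0.20 for Bnip3l to 0.043 for Kdm3a.

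Among the enzymes of collagen and disulfide processing, Ero1l gave the single call of the 45 genes. Ero1l (chromosome 14, 45283087 to 45318771, minus strand) encodes the oxidase that reoxidises protein disulfide isomerase in the endoplasmic reticulum. It was at 126, 123 and 129.9 CPM in WT 1, 2 and 3, 118, 93.7 and 98.9 in Phlpp1 KO, 114, 127 and 125 in Phlpp2 KO and 97.3, 103 and 103 in Phlpp1/2 KO. Every library that lacked Phlpp1 lay below every WT library; against Phlpp2 KO, Phlpp1/2 KO did not overlap, and only Phlpp1 KO 1 and Phlpp2 KO 1 crossed between the 6 libraries with and the 6 without Phlpp1. The log2 fold change was -0.29 (SE 0.077, adjusted p = 0.0952) with Phlpp2 present and -0.27 (SE 0.077, adjusted p = 0.499) with Phlpp2 lost. Averaged over both, it fell by 0.28 on the log2 scale (SE 0.054, adjusted p = 0.0411), 1 call among 45 genes where 0.592% of all tested genes were called. The call was narrow. It held without both libraries of low Xist (adjusted p = 0.0316), and it was lost, at adjusted p from 0.0623 to 0.125, on leaving out any 1 of 10 libraries, that is any except Phlpp1 KO 1 and Phlpp2 KO 1, and in the fit with the replicate number as a block (adjusted p = 0.0861), with log2 fold changes from -0.33 to -0.24 over the 12 refits.

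Plod2, which hydroxylates lysines in collagen telopeptides, was at 526, 583 and 591 CPM in WT 1, 2 and 3, 598, 445 and 546 in Phlpp1 KO, 549, 640.5 and 650.0 in Phlpp2 KO and 459, 450.3 and 489.5 in Phlpp1/2 KO. All Phlpp1/2 KO libraries were below all WT and all Phlpp2 KO libraries, at -0.28 (SE 0.099, adjusted p = 0.324) and -0.39 (SE 0.099, adjusted p = 0.373), while Phlpp1 KO overlapped WT at -0.098 (SE 0.099, adjusted p = 0.619). The 5 fibroblast and tendon markers were also lower in Phlpp1/2 KO than in Phlpp2 KO, at 246 to 356 against 422 to 467 CPM, and their part was not tested. P4ha1 and P4ha2 encode the catalytic subunits of collagen prolyl hydroxylase, which stabilises the triple helix. P4ha1 was at 398, 466 and 510.5 CPM in WT 1, 2 and 3, 464, 392 and 433 in Phlpp1 KO, 389, 456 and 464 in Phlpp2 KO and 436, 429.6 and 384 in Phlpp1/2 KO. P4ha2 was at 163, 199 and 209.8 CPM in WT 1, 2 and 3, 193, 156 and 173.9 in Phlpp1 KO, 155, 185 and 169 in Phlpp2 KO and 177, 176 and 141 in Phlpp1/2 KO. For both genes the WT and knockout libraries overlapped, and the log2 fold changes in Phlpp1 KO against WT were -0.093 (SE 0.099, adjusted p = 0.64) and -0.13 (SE 0.12, adjusted p = 0.575).

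The knockout of Phlpp1 on top of that of Phlpp2 was read in Phlpp1/2 KO against Phlpp2 KO, which shares no library with Phlpp1 KO against WT. These groups differed in Phlpp2 too, at 10.2 to 11.4 against 16.8 to 19.4 CPM, and the 5 fibroblast and tendon markers, Dcn the most abundant, summed to 246 to 356 against 422 to 467 CPM. Their part in the results was not tested. Here 27 of the 45 genes were lower, against 49.9% of all tested genes, with a median of -0.030. None was called by edgeR, DESeq2 or limma-voom, against 0.0724% of all tested genes by edgeR. Plod2 and Ero1l were lower without overlap, against 4.9% of all tested genes, and Eno2 was higher without overlap, against 7.52%. Such counts can only stay or rise when a library is left out. Of the 45 genes, 9 then lay lower without Phlpp2 KO 1 (12.8% of all tested genes) and 6 without Phlpp1/2 KO 3 (17.1%). Without Phlpp2 KO 2, 14 lay higher (13.9%). At an unadjusted p under 0.05, Plod2, Ero1l and Hif1a were lower and Eno2 was higher, against 4.91% and 3.94% of all tested genes. Over the pair of comparisons 25 genes were lower in both, 2 were higher in both, 16 were lower with Phlpp2 present and higher without it, and 2 were the reverse. The same sign was found in 60% of the 45 genes and in 50.7% of all tested genes. The genes lower in both included Pfkfb3, Epas1, Egln1, Egln3, Pdk1, Aldoc, Mxi1, Bnip3, Plod2 and Ero1l. Those whose sign changed included Aldoa, Tpi1, Gapdh, Pgk1, Pkm, Ldha, Hk1, Gpi1 and Slc2a1. In Phlpp1/2 KO against Phlpp2 KO, Hk1, Hk2 and Gpi1 stood at only 0.0032 to 0.054. Of the 25 glycolysis and glucose uptake genes 11 were lower and 14 higher there, with a median of 0.0013. Signs there moved with single libraries: 37 of the 45 were lower without Phlpp2 KO 1, and 11 without Phlpp2 KO 2.

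**Figure D4:**
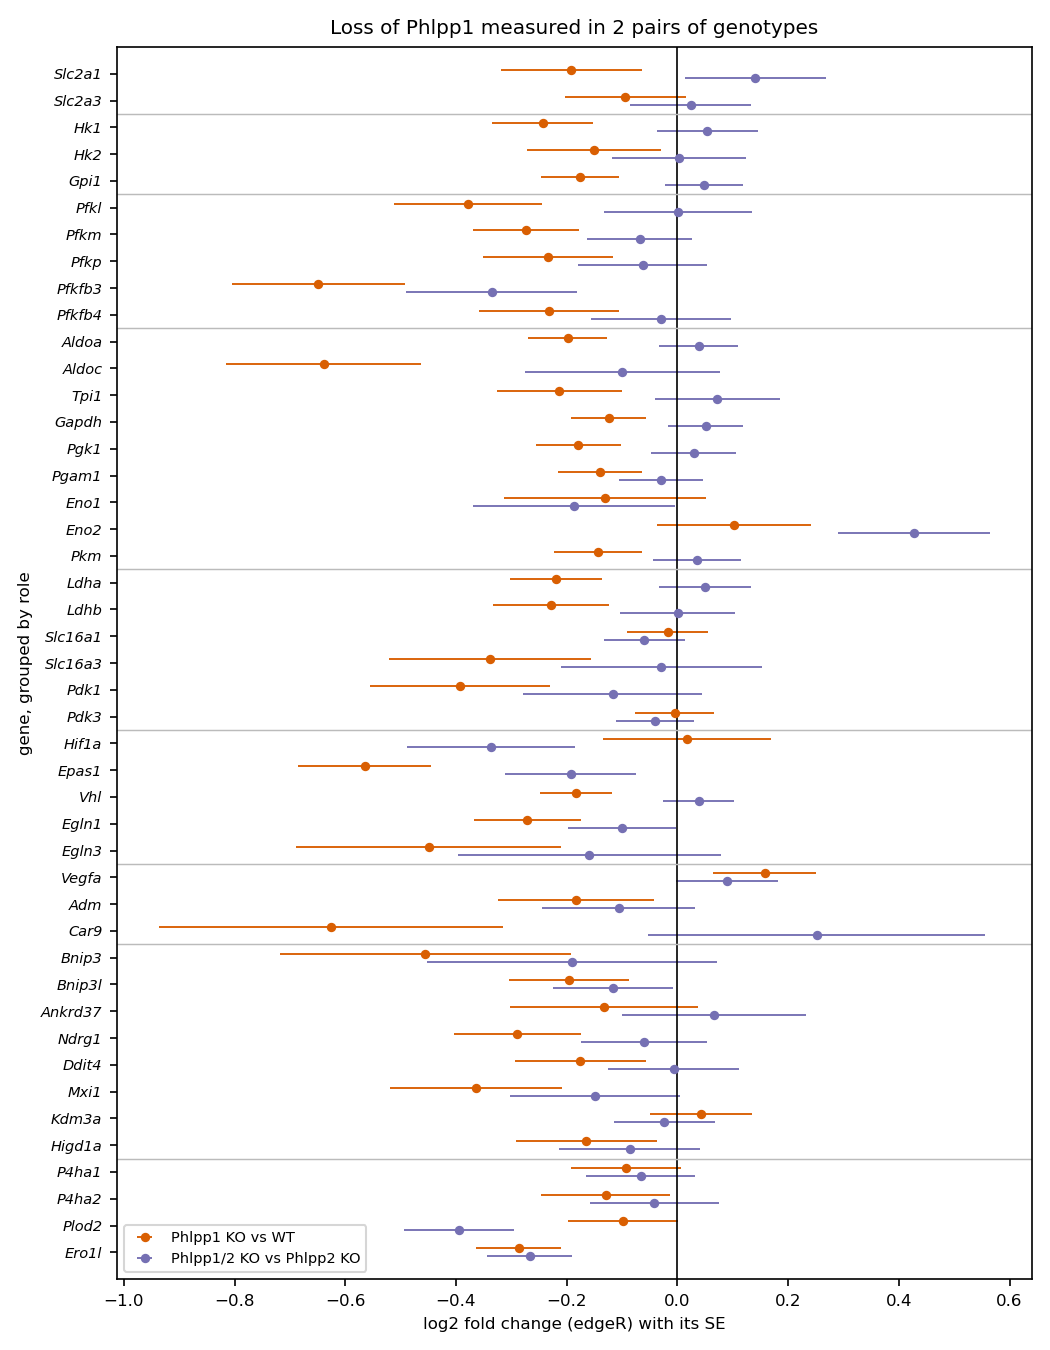
Points give the log2 fold change of each of the 45 genes with Phlpp1 lost, with horizontal bars for its SE: orange for Phlpp1 KO against WT and purple for Phlpp1/2 KO against Phlpp2 KO, which share no library. Grey lines part the roles. Of the orange points 41 lie left of 0, and of the purple points 27.

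Averaged over both pairs of genotypes, 6 libraries against 6, Phlpp1 loss went with a lower level in 42 of the 45 genes, against 49.1% of all tested genes, with a median of -0.11. After Ero1l, the smallest p-values were those of Epas1 at -0.38 (SE 0.085, adjusted p = 0.0742), Pfkfb3 at -0.49 (SE 0.11, adjusted p = 0.0803), Plod2 at -0.25 (SE 0.07, adjusted p = 0.146) and Aldoc at -0.37 (SE 0.12, adjusted p = 0.206). At an unadjusted p under 0.05, 9 were lower and Eno2 was higher, at 0.27 (SE 0.098, adjusted p = 0.236), against 8.36% and 6% of all tested genes. Without Phlpp2 KO 1, Epas1, Pfkfb3, Pfkm and Plod2 were called beside Ero1l, and the median was -0.15. Without Phlpp2 KO 2 none was called, and the median was -0.044. Over all genes these refits called 568 and 53, where the fit with all libraries called 98.

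In the 2 comparisons that measure loss of Phlpp2, most of the genes went in opposite directions. Phlpp2 mRNA itself differed unequally in them. Its mean was 25.5 CPM in WT and 17.8 in Phlpp2 KO, but 24.2 in Phlpp1 KO and 10.9 in Phlpp1/2 KO. The part of this inequality was not tested. In Phlpp2 KO against WT 35 of the 45 genes were lower, against 53.9% of all tested genes, with a median of -0.074, and none was called by edgeR, DESeq2 or limma-voom, against 0.121% by edgeR, with 2 lower and 0 higher at an unadjusted p under 0.05, against 5.29% and 8.48%. Slc2a3, Pfkfb4, Epas1 and Vhl were lower without overlap, against 8.87% of all tested genes, and Hif1a was higher, against 10.3%. Without WT 1, where this count can only stay or rise, 7 were lower, against 14.3%. The share of counts in mt- genes was 0.911% to 1.139% in Phlpp2 KO and 0.674% to 0.751% in WT, the fibroblast and tendon markers summed to 422 to 467 against 319 to 391 CPM and the 8 skeletal muscle markers to 5.21 to 14.1 against 18.6 to 101 CPM, and their part in the result was not tested. In Phlpp1/2 KO against Phlpp1 KO, where Phlpp1 is knocked out in both groups and which shares no library with the former comparison, 33 of the 45 genes were higher, where 49.4% of all tested genes were lower, with a median of 0.11 against 0.0021 for all tested genes. None was called by the 3 tools, against 0.0121% by edgeR, with 0 lower and 3 higher at an unadjusted p under 0.05, against 4.46% and 3.44%. None was lower without overlap, against 6.02% of all tested genes, and 9 were higher, against 7.2%: Gpi1, Pfkl, Aldoa, Tpi1, Gapdh, Pgk1, Pgam1, Ldha and Adm. With Phlpp1 KO 1 or 3 left out, the count of 9, which can only stay or rise in smaller groups, became 19 and 14. The shares of all tested genes were then 13.5% and 11.8%. With Phlpp1/2 KO 2 or 3 left out it became 17 and 14, against 12% and 16.1%, and leaving out Phlpp1 KO 2 gave a median of 0.061. Here the 4 adipocyte markers summed to 3.22 to 3.78 CPM in Phlpp1/2 KO and 2.09 to 2.82 CPM in Phlpp1 KO. Over the pair of comparisons, 30 genes were lower with Phlpp1 present and higher without it, 7 were the reverse, and 17.8% had the same sign, against 44% of all tested genes. Averaged over both, Phlpp2 loss left a median of 0.018 with none called by the 3 tools, against 0.0906% by edgeR, and Adm, which was higher, the 1 gene at an unadjusted p under 0.05, against 3.5% of all tested genes lower and 3.45% higher. The median turned to -0.038 without Phlpp2 KO 2, with 33 of the 45 genes lower in place of 14, and was 0.063 without Phlpp2 KO 1.

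With both phosphatases knocked out, most of these genes were again lower than in WT, by small amounts. In Phlpp1/2 KO against WT, 37 of the 45 were lower, against 50.4% of all tested genes, with a median of -0.091. EdgeR called none of the 45, against 0.235% of all tested genes. DESeq2 called Ero1l and limma-voom none, where they called 168 and 35 over all genes. At an unadjusted p under 0.05, 6 were lower and 0 higher, against 6.09% and 4.99%. The 13 genes lower without overlap, against 10.3% of all tested genes, were Hk1, Gpi1, Pfkfb3, Pfkfb4, Aldoc, Pdk1, Epas1, Vhl, Egln1, Egln3, Mxi1, Plod2 and Ero1l, and Eno2 and Vegfa were higher, against 8.57%. Ero1l had the smallest p, at -0.32 (SE 0.077, adjusted p = 0.161). Without Phlpp1/2 KO 1, the library with Y-linked counts, 17 were lower without overlap, against 14.7% of all tested genes. Without WT 1 it was 26, against 15.7%. In smaller groups such counts can only stay or rise. The proliferation genes summed to 1655 to 1864 CPM in Phlpp1/2 KO and 1409 to 1615 CPM in WT, and their part was not tested.

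The interaction term is the log2 change in Phlpp1/2 KO minus the summed log2 changes in both single knockouts, all against WT. It was above 0 for 38 of the 45 genes, with a median of 0.20, where the median of all tested genes was 0.037 and 43.9% of them were below 0. None of the 45 was called by the 3 tools, against 0.0483% of all tested genes by edgeR. An unadjusted p under 0.05 was reached by 7 genes above 0, against 4.48% of all tested genes, and by none below, against 10.1%. The smallest p-values belonged to Vhl at 0.22 (SE 0.091, adjusted p = 0.272), Aldoa at 0.24 (SE 0.10, adjusted p = 0.294) and Hk1 at 0.30 (SE 0.13, adjusted p = 0.303). The largest value was that of Car9, 0.88, and Hif1a had the lowest, -0.36. Over the refits that left out 1 library the median ran from 0.11 without Phlpp2 KO 1 to 0.28 without Phlpp2 KO 2. Phlpp2 mRNA was at 10.2 to 11.4 CPM in Phlpp1/2 KO and at 16.8 to 19.4 CPM in Phlpp2 KO. The part of that difference in the interaction term was not tested.

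The 45 genes varied together from library to library. Taken as the mean log2 deviation from each gene's mean over the 12 libraries, WT 1, 2 and 3 stood at 0.037, 0.17 and 0.11, and Phlpp1 KO 1, 2 and 3 at -0.051, -0.21 and -0.087. Phlpp2 KO 1, 2 and 3 stood at -0.17, 0.25 and -0.012, and Phlpp1/2 KO 1, 2 and 3 at 0.036, -0.048 and -0.014. Every WT library was thus above every Phlpp1 KO library, and the Phlpp2 KO libraries alone nearly spanned the whole range. Phlpp2 KO 2 was the highest of the 12 libraries for 24 of the 45 genes, Phlpp1 KO 2 the lowest for 16 and Phlpp2 KO 1 the lowest for 13. The SD of this mean within genotypes, pooled over the 4 groups, was 0.12. Without Phlpp2 KO 2 the median in Phlpp2 KO against WT went from -0.074 to -0.16, with 27 genes lower without overlap against 17% of all tested genes, and the median in Phlpp1/2 KO against Phlpp2 KO went from -0.030 to 0.078. Without Phlpp2 KO 1 they went to 0.021 and -0.11. The direction for Phlpp2 KO depended on which of its libraries were kept.

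**Figure D5:**
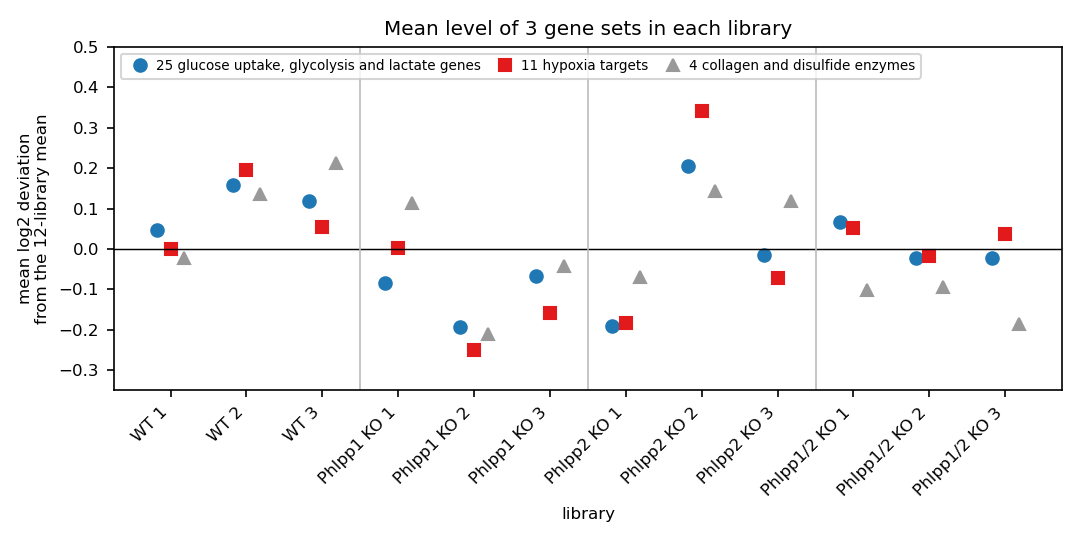
Each point is the mean, over the genes of a set, of log2 CPM minus the gene's mean over the 12 libraries: 25 glucose uptake, glycolysis and lactate genes (circles), 11 hypoxia targets (squares) and 4 collagen and disulfide enzymes (triangles). Circles and squares are both highest in Phlpp2 KO 2, at 0.20 and 0.34, and the triangles are below 0 in all 3 Phlpp1/2 KO libraries.

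By gene, the spread within genotypes was widest for Car9, Bnip3, Egln3 and Eno1, with pooled SDs of 0.44, 0.36, 0.33 and 0.26 on the log2 scale. It was narrowest for Vhl and Gapdh, at 0.066 and 0.079. Car9, Bnip3 and Egln3 are known HIF targets. A log2 fold change of -0.63 in Car9 had an unadjusted p of 0.0692 in Phlpp1 KO against WT, where -0.56 in Epas1 had 0.000467 (edgeR's quasi-likelihood test).

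Neighbouring pathways were read from lists of other genes. Of 49 further glycolysis, glucose and glycogen genes, 48 were found and 40 tested; in Phlpp1 KO against WT 27 of the 40 were lower, with a median of -0.13, where 52.3% of all tested genes were lower with a median of -0.013. EdgeR and limma-voom called none of them, against 0.537% of all tested genes by edgeR. DESeq2 called 2 (Bsg and Pdk2), where it called 990 over all genes. At an unadjusted p under 0.05 in edgeR, 9 were lower and 1 was higher, against 9.54% and 10.8% of all tested genes. Pdk2, a kinase that shuts pyruvate dehydrogenase, had the smallest p, at -0.50 (SE 0.13, adjusted p = 0.0952), and Bsg, the chaperone of the lactate transporters, stood at -0.20 (SE 0.061, adjusted p = 0.114). Of 62 further hypoxia pathway genes, 58 were found and 57 tested, and 41 were lower, with a median of -0.11. EdgeR and limma-voom called none and DESeq2 called 8, Plin2 and Wsb1 among them, beside the same 990 over all genes. At an unadjusted p under 0.05, 14 were lower and 5 higher, against the same shares of all tested genes. Wsb1, a ubiquitin ligase subunit, was higher at 0.44 (SE 0.096, adjusted p = 0.0633), and Plin2, a lipid droplet protein, was lower at -0.39 (SE 0.11, adjusted p = 0.108). The 31 genes of the pentose phosphate pathway, the TCA cycle and pyruvate entry, all found and tested, divided evenly, with 15 lower and 16 higher, and a median of 0.011. EdgeR and limma-voom called none and DESeq2 called 2 (Dld and Taldo1), again beside 990 over all genes. At an unadjusted p under 0.05, 2 were lower and 4 higher, against 9.54% and 10.8% of all tested genes. Among them Taldo1, a pentose phosphate enzyme, stood at -0.24 (SE 0.066, adjusted p = 0.0967) and Dld, a subunit of pyruvate dehydrogenase, at 0.41 (SE 0.11, adjusted p = 0.101). EdgeR and limma-voom called no gene of the 3 lists in any of the 8 comparisons. DESeq2 called between 1 and 3 genes of a list in some of the other comparisons. For averaged Phlpp1 loss, Cox4i2 and Hmox1 were among them, where DESeq2 called 400 over all genes.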

How the data were processed

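Libraries made with the NEBNext Ultra II kit from total RNA of 12 chondrocyte samples were sequenced. The submitters' processing notes name bcl2fastq 2.17, STAR 2.5.2b, Subread 1.5.2 with its featureCounts, and the build mm10. The sources used here state neither strand setting nor annotation release nor how multiply matching reads were treated. The authors deposited raw counts per gene, and every column was used.

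Counts were tested in edgeR 4.0.16 (R 4.3.3). Its filter on low counts kept 16565 of 49315 genes, with at least 99.9% of each library's counts. TMM factors scaled the libraries, and 1 model with a term for genotype was fitted to all 12 libraries (8 residual degrees of freedom, common biological coefficient of variation 0.105). The 8 contrasts used the robust quasi-likelihood test, p-values were adjusted by Benjamini-Hochberg over all tested genes, and an adjusted p under 0.05 was a call. The scripts were tested on simulated data. CPM are TMM-scaled, SE is the size of the log2 fold change over the root of F, and RPKM and gene positions use GENCODE vM21 on GRCm38 (49056 of 49315 identifiers matched). Copies were found with BLAST+ 2.17.0.

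The 45 genes, the lists of other genes and the markers were chosen with earlier results of these data known. Values in every library are given for genes called in any contrast, for the 6 genes with the smallest p in each contrast other than averaged Phlpp2 loss (3 for the interaction), at a mean of at least 1 CPM, and for a set that stands for each role. Other genes are given by their range. Alternatives were DESeq2 1.42.0, limma-voom (limma 3.58.1), other size factors, no filter, only the compared libraries, a replicate block, each library left out and the libraries of low Xist left out. Leaving out genes without a symbol, summing Eno1 with Eno1b and recounting overlap without each library were chosen after seeing the data.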

Additional observations from a re-analysis of the deposited data

How the results depend on the processing

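Under every alternative, the median log2 fold change of the 45 genes moved by less than 0.12 in all 8 comparisons. That is the pooled SD within genotypes of the mean log2 deviation of a library. It describes single libraries and not the error of a contrast between groups. A smaller move therefore does not make a median stable. On leaving out 1 library at a time the median ran from -0.22 to -0.16 in Phlpp1 KO against WT and from 0.11 to 0.28 for the interaction. In Phlpp2 KO against WT it ran from -0.16 to 0.021, with the sign turned without Phlpp2 KO 1, and in Phlpp1/2 KO against Phlpp2 KO from -0.11 to 0.078, with the sign turned without Phlpp2 KO 2, as it did for averaged Phlpp2 loss, from -0.038 to 0.063. The number of genes called moved more. In Phlpp1 KO against WT the 0 called became 8 with only the compared libraries, 4 with DESeq2 and 3 with no filter (Aldoc, Epas1 and Ero1l), and 0 to 1 without single libraries. For Phlpp1 loss averaged over both pairs, the 1 call became 4 with DESeq2 (Epas1, Ero1l, Pfkfb3 and Plod2) and 0 to 5 without single libraries. In Phlpp1/2 KO against WT the 0 called became 1 (Ero1l) with DESeq2 and with no filter. In Phlpp1/2 KO against Phlpp2 KO and in the interaction it was 0 to 1 without single libraries, the 1 being Hif1a without Phlpp1/2 KO 3. The cause was not tested.

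The replicate numbers showed no clear pairing of the samples. Deviations from the group means correlated at -0.16 to 0.30 between same-numbered samples of different genotypes and at -0.28 to 0.22 between others. Of 12 samples, 5 correlated best with their own number. Whether same-numbered samples were handled together was not tested. Over all genes, the block raised the number of calls in some comparisons and lowered it in others. With the replicate number as a block, 1 gene was called in Phlpp1 KO against WT (Epas1) and 0 for averaged Phlpp1 loss, and the count stayed 0 in the other 6 comparisons.

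The values of changed sign lay within 0.1 of 0 on the log2 scale: Hif1a in Phlpp1 KO against WT stood at -0.0015 without Phlpp1 KO 1 and at -0.058 without Phlpp1 KO 3 (0.14 without Phlpp1 KO 2), and Eno1 summed with Eno1b stood at -0.014 in Phlpp2 KO against WT, 0.049 in Phlpp1/2 KO against Phlpp1 KO and 0.063 for the interaction. Of 915 recomputed values of named genes other than Eno1, 876 kept direction and side of the threshold, 26 passed it newly, 11 lost it and 2, those of Hif1a, changed sign.

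Over all genes, edgeR called 89 in Phlpp1 KO against WT, and 1163 with only the compared libraries, 990 with DESeq2, 461 with no filter, 245 with the block and 16 to 57 without single libraries. For averaged Phlpp1 loss it was 98, and 400 with DESeq2, 274 with no filter, 51 with the block and 38 to 568 without single libraries. For the interaction it was 8, and 650 with DESeq2, 183 with no filter, 308 with the block and 5 to 1196 without single libraries. With DESeq2 the counts were 317 against 20 in Phlpp2 KO against WT, 168 against 39 in Phlpp1/2 KO against WT, 44 against 12 in Phlpp1/2 KO against Phlpp2 KO, 21 against 2 in Phlpp1/2 KO against Phlpp1 KO and 59 against 15 for averaged Phlpp2 loss, and with no filter 110, 102, 32, 14 and 40. The block gave 84 in Phlpp2 KO against WT. The fit of only the compared libraries gave 3 in Phlpp1/2 KO against Phlpp2 KO and 1 in Phlpp1/2 KO against Phlpp1 KO. Limma-voom gave 13 in Phlpp2 KO against WT and 8 in Phlpp1/2 KO against Phlpp2 KO. Without single libraries it was 4 to 132 in Phlpp1/2 KO against Phlpp2 KO. Without the libraries of low Xist it was 18 in Phlpp1 KO against WT, 28 for averaged Phlpp1 loss, 4 for the interaction and 3 in Phlpp1/2 KO against Phlpp2 KO. The lowest level of any of the 45 genes in any library was 3.02 CPM (Ankrd37), where 1 count was worth at most 0.0461 CPM.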
